A study of Mus musculus with 4 samples.

Results

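The immediate-early genes Fos, Fosb, Jun, Junb, Jund, Egr1, Atf3, Ier2, Ier3 and Nr4a1 were followed through the cell types of the stria vascularis (SV). These 10 genes were taken by symbol from the gene lists of all 4 libraries, out of 27873 genes that the lists of cells and nuclei share. The question was which SV cells carried transcripts of these genes after enzymatic dissociation, and how their levels in whole cells compared with those in nuclei.

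Immediate-early genes are transcribed within minutes of a stimulus, without the need for newly made protein, because the factors that switch them on are already present in the cell and are activated by phosphorylation. Fos and Fosb pair with Jun, Junb or Jund to form AP-1, a DNA-binding dimer, whereas Egr1 is a zinc-finger transcription factor and Nr4a1 an orphan nuclear receptor. Atf3 is a stress-inducible bZIP factor related to CREB, Ier2 is a short nuclear protein, and Ier3 is a short-lived protein that modulates survival and MAP kinase signalling. Their transcripts are known to accumulate while tissue is digested at a warm temperature, so they are often read as a record of handling as well as of cell state. The SV is the epithelium of the cochlear lateral wall that secretes potassium into the endolymph and generates the endocochlear potential, with marginal, intermediate and basal cells as its layers and spindle and root cells at its edges.

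Whole cells were profiled in 3 captures (scRNA-Seq) and nuclei in 1 capture (snRNA-Seq), from CBA/J mice at postnatal day 30 for which the labels give no treatment and no engineered allele. Several mice were pooled for each capture, which is therefore the replicate. The tests fit capture as a block, so p-values measure how differences between types vary from capture to capture. Cells were released with trypsin at 37 °C for 7 min followed by 35 min on ice, and nuclei by lysis at 4 °C for 25 min. The gene lists differ as well, with 27998 genes (13 of them mitochondrial) for cells and 48816 (37 mitochondrial) for nuclei, so the counts were made against different annotations, and ratios of cells over nuclei were taken over the shared genes only. Cells and nuclei therefore differed in dissociation, in compartment, in run and in annotation, and these cannot be told apart.

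The cell captures held 392, 1358 and 1580 barcodes with a median of 5054, 4938 and 3878 unique molecular identifiers (UMIs), and the nucleus capture held 11057 barcodes with a median of 1561. Pairs of libraries shared 0 to 32 barcode sequences. Clusters built without the immediate-early genes among the variable genes gave 128 marginal-like, 982 intermediate-like, 111 basal-like and 34 spindle/root-like cells, called marginal, intermediate, basal and spindle/root cells from here on. The nuclei gave 2604, 1475, 708 and 211 of the same types. All 6 spindle/root markers and all 6 basal markers were detected in each tested sum of their own type, as were 11 or 12 of 12 marginal markers and 10 or 11 of 12 intermediate markers (Pmel was at 0 in all captures). A further 1481 cell barcodes with little of the nuclear RNA Malat1 and a median mitochondrial share of 59.2% stayed unnamed. A cluster of 42 cells carried both neutrophil and macrophage markers and is described as such without a single name. Intermediate markers were also present in basal cells at 8603 to 12203 CPM (the usual scaling of UMIs to the total of the same barcodes), in marginal cells at 6098 to 10117 and in spindle/root cells at 877 to 4154, against 22076 to 30246 in intermediate cells. Marginal markers were at 5883 and 3766 CPM in the spindle/root sums of captures 2 and 3, where spindle/root markers were at 6186 and 9026 CPM. At a resolution of 1.2 a cluster of 13 cells, with spindle/root markers and 11 marginal markers raised, stayed unnamed, and the part of marginal RNA in the spindle/root levels was not tested.

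Some of these genes share a short control element upstream of their start. The bases before the start are printed for 4 promoters that hold it (Fos, Fosb, Junb and Atf3) and, for contrast, for Jun, whose stretch does not. Of the 10 genes, 8 had a RefSeq promoter on GRCm38.p6, while Egr1 and Ier2 had none in the table used. The 150 bases before each start are given 5′ to 3′ on the gene's strand. Capitals mark TGACG or its reverse complement CGTCA, the core of the cAMP response element that CREB and ATF factors recognise. The stretches lie at chr12:85473740-85473889 (plus strand) for Fos, chr7:19310046-19310195 (minus) for Fosb, chr8:84978749-84978898 (minus) for Junb, chr1:191183334-191183483 (minus) for Atf3 and chr4:95052223-95052372 (minus) for Jun. The Atf3 stretch lies inside the annotated gene, before one of its inner starts, and 7 of its bases fall in an annotated exon, as do 6 bases of the Fosb stretch.
Fos: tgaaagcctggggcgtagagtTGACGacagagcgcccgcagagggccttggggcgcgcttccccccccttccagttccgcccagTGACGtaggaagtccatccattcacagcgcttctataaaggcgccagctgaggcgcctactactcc
Fosb: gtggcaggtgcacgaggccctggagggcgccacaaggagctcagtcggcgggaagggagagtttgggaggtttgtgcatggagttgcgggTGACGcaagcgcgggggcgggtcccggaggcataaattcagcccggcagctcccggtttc
Junb: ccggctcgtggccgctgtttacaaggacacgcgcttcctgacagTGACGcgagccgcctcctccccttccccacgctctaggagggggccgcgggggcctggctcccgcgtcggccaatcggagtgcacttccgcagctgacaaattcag
Atf3: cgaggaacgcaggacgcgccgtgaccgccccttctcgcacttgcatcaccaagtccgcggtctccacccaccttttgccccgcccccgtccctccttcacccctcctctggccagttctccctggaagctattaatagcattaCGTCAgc
Jun: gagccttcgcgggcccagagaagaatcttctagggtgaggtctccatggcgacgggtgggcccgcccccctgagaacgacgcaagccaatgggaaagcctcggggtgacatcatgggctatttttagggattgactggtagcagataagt

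Over the 250 bases before the start, on both strands, TGACG was found in 5 of the 8 promoters (Fos, Fosb, Junb, Atf3 and Nr4a1), whereas 17.8% of 32851 promoters hold it. The longer palindrome TGACGTCA, which contains TGACG, was in 0 of 8 against 1.55% of all promoters, and the AP-1 site TGANTCA was in 0 of 8 against 6.75%. The EGR site GCGNGGGCG was in 2 of 8 (Fosb and Nr4a1) against 4.70%. The starts used for Jund and Junb were not found in a GENCODE transcript. For Jund the 150 bases before that start are chr8:70697589-70697738, whereas GENCODE places the gene from 70698949 on. The lack of matches for Jund therefore does not describe the bases before the GENCODE start. The lack of capitals in the Jun stretch says only that these letters are not in it. It does hold TGACATCA, a near match to TGACGTCA that an exact search does not count. Each match is a description of the letters and not of a bound site.

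Across the 3 cell captures, UMIs of these genes were spread unevenly over the cell types. The cluster with neutrophil and macrophage markers held 1.44% of all UMIs but 30.9% of the 139 Fos UMIs, 14.3% of Junb, 11.8% of Jun and 9.49% of Ier2. Spindle/root cells held 1.89% of all UMIs but 12.2% of Fos, 10.4% of Jun, 7.60% of Junb, 6.81% of Ier2 and 5.61% of Jund. For Jund the cluster with neutrophil and macrophage markers held 0.705%, below its share of all UMIs, so it exceeded that share for Fos, Jun and Junb but not for Jund, whereas spindle/root cells exceeded it for Jund too.

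Basal cells held 7.14% of all UMIs but 49.2% of the 122 Egr1 UMIs and 23.2% of the 69 Nr4a1 UMIs. Marginal cells held 30.4% of Nr4a1 with 7.70% of all UMIs. Intermediate cells held 35.3% of all UMIs but 55.0% of the 540 Ier3 UMIs and 92.9% of the 70 Atf3 UMIs, but 62 of these lay in 3 barcodes of capture 2, and the intermediate cells of captures 1 and 3 had none. The unnamed barcodes low in Malat1 held 28.6% of all UMIs but 2.88% of Fos and none of Fosb or Atf3.

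**Figure D1:**
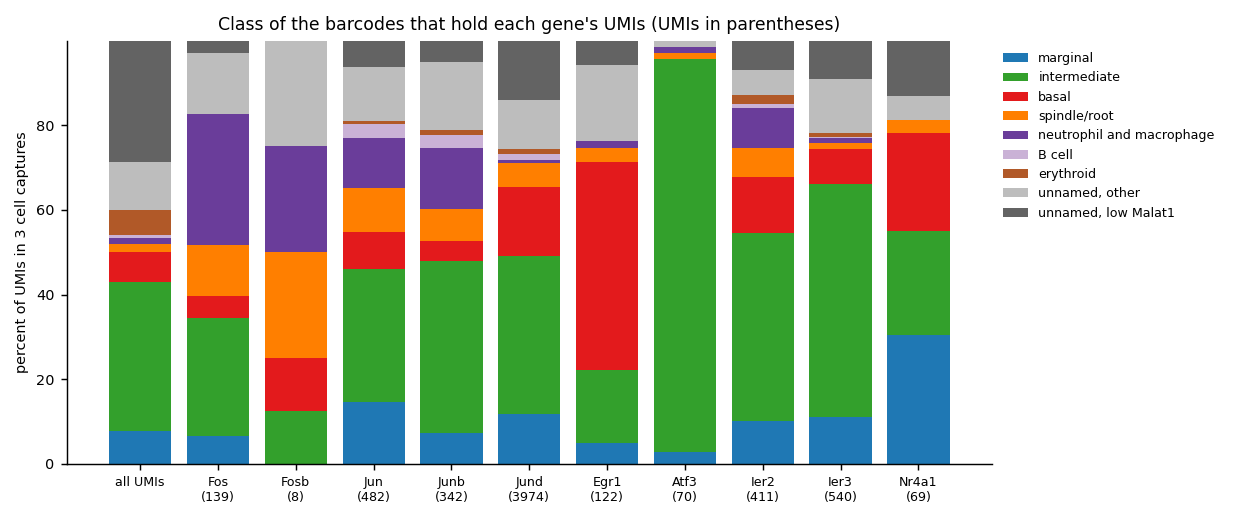
Stacked bars give the percent of each gene's UMIs in the 3 cell captures that fell in each class of barcodes, and the leftmost bar gives the same for all UMIs. Basal cells take 49.2% of Egr1 and intermediate cells 92.9% of Atf3, against 7.14% and 35.3% of all UMIs, and 62 of the 70 Atf3 UMIs come from 3 barcodes.

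Erythroid barcodes, which should hold little of these transcripts, had 0 UMIs of Fos, Fosb, Egr1, Atf3 and Nr4a1 among 1092808 UMIs. For those barcodes this allows up to 2.75 CPM. In the same barcodes Jun was at 2.75 CPM, Junb at 3.66, Ier3 at 4.58, Ier2 at 7.32 and Jund at 41.2. Intervals and limits of this kind cover counting error only. The erythroid barcodes came from captures 2 and 3 and held intermediate markers at 480 CPM. Spindle/root, marginal and basal cells held them at 2566, 7413 and 9585 CPM. The erythroid values therefore give no bound on stray RNA in the SV types, which was not tested.

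**Figure D2:**
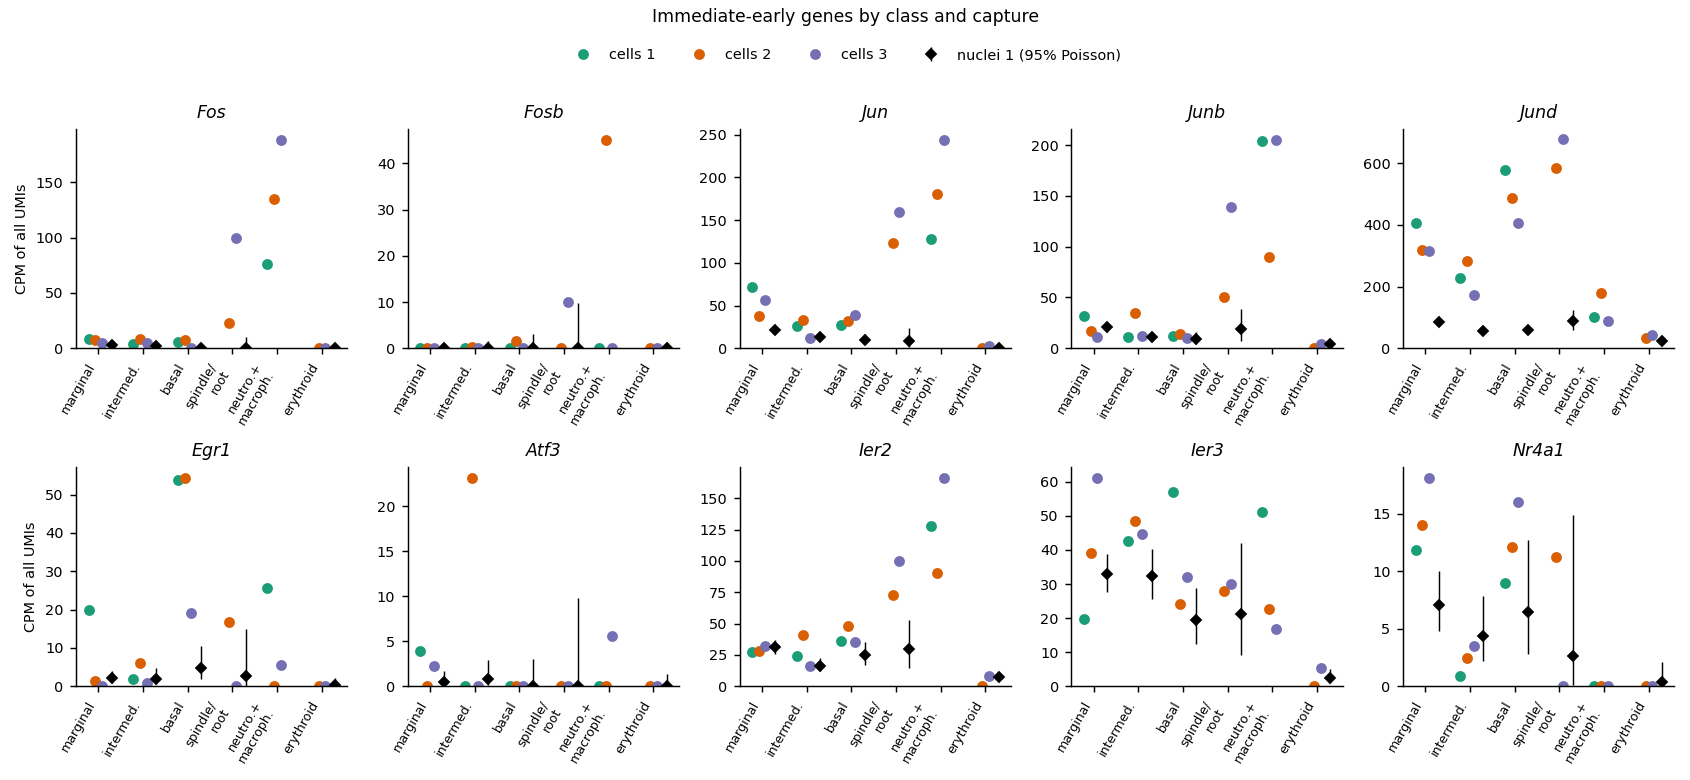
Each panel gives the level of a gene in CPM of all UMIs for each class of barcodes, with a point for each of the 3 cell captures and a diamond for the nuclei with its 95% exact Poisson interval, which the cluster with neutrophil and macrophage markers lacks. Egr1 in basal cells lies between 19.2 and 54.4 CPM in the 3 captures and at 4.85 CPM in basal nuclei.

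To compare types, the UMIs of each type in each capture were added up wherever at least 5 cells were present, which gave 11 sums because capture 1 held 4 spindle/root cells. Each type was then compared with the mean of the other 3 in edgeR (quasi-likelihood, capture as block, Benjamini-Hochberg adjustment over 6995 genes). The comparisons of a gene are therefore not independent, since a high level in 1 type lowers its fold in the other types. A call of lower can follow from a high level elsewhere, and it does not rank the types. Of the 10 genes, 6 passed the filter on low counts (Jun, Junb, Jund, Egr1, Ier2 and Ier3). Fos, Fosb, Atf3 and Nr4a1 fell below it and are given by their levels. A gene could pass through the type in which it was high.

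In spindle/root cells 4 of the 6 genes tested were called higher (Jun, Junb, Jund and Ier2) against 11.9% of all genes tested, and 0 were called lower against 6.4%. The count of 4 fell to 1 (Jun) without capture 3, where basal and intermediate cells had 2 each, and to 2 without the block, level with basal cells. By edgeR 0 were lower at an unadjusted p under 0.05 too, and by DESeq2 0 were lower. In the other types the genes called higher were 2 of 6 in basal cells (Jund and Egr1) against 14.4% of all genes, 1 of 6 in intermediate cells (Ier3) against 18.2%, and 0 of 6 in marginal cells against 15.2%. In marginal cells 0 were higher at an unadjusted p under 0.05 in edgeR and 0 by DESeq2. The genes called lower were 3 of 6 in intermediate cells (Jun, Jund and Egr1) against 18.5%, 2 of 6 in marginal cells (Jund and Ier2) against 10.9%, and 0 of 6 in basal cells against 10.6%. For the basal cells 2 were lower at an unadjusted p under 0.05 in edgeR and 0 were called lower by DESeq2. The median log2 fold change of the 6 genes was 0.90 in spindle/root, -0.07 in basal, -0.54 in intermediate and -0.54 in marginal cells, where the medians of all genes were -0.03, -0.01, 0.00 and 0.02.

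**Figure D3:**
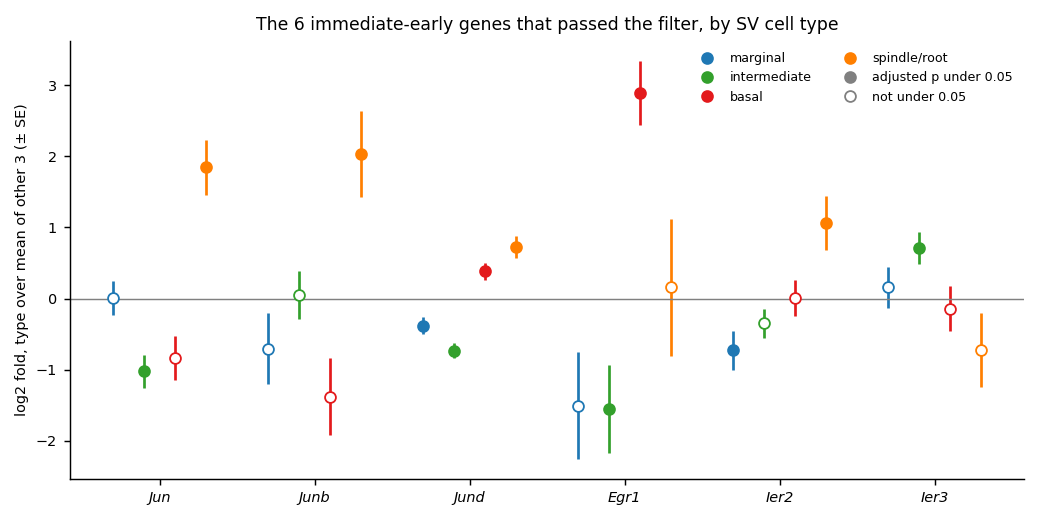
Points give the log2 fold change of each tested gene in a type over the mean of the other 3 types, with its standard error, and filled points had an adjusted p under 0.05. In spindle/root cells 4 of 6 points are filled and above 0, and in intermediate cells 3 of 6 are filled and below 0.

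Jun, a core subunit of AP-1, is an intronless gene at chr4:95049034-95052222 (mm10, minus strand). In spindle/root cells it reached 123 CPM in capture 2 and 159 CPM in capture 3, and the 4 cells of capture 1 gave 180 CPM. In marginal cells it was at 71.1, 37.8 and 56.7 CPM in captures 1 to 3, in basal cells at 26.9, 31.7 and 38.4, and in intermediate cells at 25.9, 32.8 and 12.5. Every spindle/root value lay above every value of the other 3 SV types, and the marginal values overlapped the basal range only in capture 2.

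Jun was higher in spindle/root cells than in the mean of the other types (log2 fold change 1.85, SE 0.39, adjusted p = 0.000749), and this call held without any single capture. It was lower in intermediate cells (log2 fold change -1.02, SE 0.23, adjusted p = 0.000877). A few barcodes carried much of the spindle/root level. The top 3 barcodes held 13 of 22 Jun UMIs in capture 2 (of 17 cells) and 13 of 16 in capture 3 (of 13 cells). In capture 3 they held 10 of 14 for Junb, 44 of 68 for Jund and 6 of 10 for Ier2, and in capture 2 they held 7 of 9, 44 of 104 and 9 of 13. In basal cells the Jun log2 fold change was -0.83 with an adjusted p of 0.0509. When the intermediate cells were taken from their cluster of higher Malat1 alone, a setting added after the data were seen, their Jun fold was -0.42 with an adjusted p of 0.183.

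Junb (chr8:84974484-84978718, minus strand), a Jun relative that can restrain Jun activity, reached 50.5 CPM and 139 CPM in the spindle/root cells of captures 2 and 3. It was at 31.6, 16.8 and 11.3 CPM in marginal, 12.0, 13.6 and 9.60 in basal, and 11.1, 34.6 and 11.7 in intermediate cells. The spindle/root values were the highest of the 4 SV types, and they rested on 9 and 14 UMIs. The cluster with neutrophil and macrophage markers had 204, 90.3 and 205 CPM. Junb was higher in spindle/root cells (log2 fold change 2.03, SE 0.60, adjusted p = 0.0247), but without capture 3 the fold was 0.92 with an adjusted p of 0.415, and without the block the adjusted p was 0.0875.

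Jund (chr8:70698949-70700616, plus strand) encodes the Jun protein that is commonly present before a stimulus. It was at 584 and 677 CPM in the spindle/root cells of captures 2 and 3, and at 578, 488 and 406 CPM in basal cells. Marginal cells had 407, 317 and 315 CPM and intermediate cells 229, 283 and 173. Spindle/root values lay above those of the other types, the lowest basal value (406) was just under the highest marginal value (407), and the intermediate values lay below those of the other types.

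The Jund difference was 0.73 (SE 0.16, adjusted p = 0.000586) for spindle/root, 0.38 (SE 0.12, adjusted p = 0.0114) for basal, -0.38 (SE 0.12, adjusted p = 0.0155) for marginal and -0.73 (SE 0.11, adjusted p = 3.43e-07) for intermediate cells, each as a log2 fold change by edgeR. The intermediate call held without any single capture. The spindle/root value fell to 0.48 (adjusted p = 0.112) without capture 3. The basal and marginal calls were lost in DESeq2 (adjusted p = 0.0839 and 0.0897). The basal call was lost without capture 1 (adjusted p = 0.0878) or capture 2 (adjusted p = 0.0521), and the marginal call without capture 2 (adjusted p = 0.0816) or without the block (adjusted p = 0.0536). Without TMM scaling the marginal call was also lost (adjusted p = 0.0933). All 4 Jund calls held with mitochondrial UMIs left out of the totals, which changes the scaling only. The median mitochondrial share of UMIs was 11.9% in spindle/root, 24.0% in basal, 26.4% in marginal and 32.0% in intermediate cells. The part of that share in these differences was not tested.

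Fos (chr12:85473890-85477273, plus strand), the classical AP-1 partner of Jun, was sparse in the main SV types. It was at 7.90, 6.99 and 4.54 CPM in marginal cells, at 3.70, 8.56 and 4.29 in intermediate cells, and at 5.99, 7.56 and 0 in basal cells, with 0 of 312505 UMIs in the last. Spindle/root cells had 22.5 CPM in capture 2 and 99.6 CPM in capture 3, from 4 and 10 UMIs. Of the 10 UMIs of capture 3, 5 came from 1 barcode and 4 barcodes had any.

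The highest Fos level was in the cluster with neutrophil and macrophage markers, at 76.6, 135 and 189 CPM in the 3 captures. These rest on 3, 6 and 34 UMIs from 5, 8 and 29 cells. Neutrophil markers there were at 25.5, 25736 and 70310 CPM in captures 1 to 3, and B cell markers were at 2810 CPM in capture 1. The mean of 134 ± 56.1 CPM (SD, n = 3) thus mixes the make-up of that cluster with its level. Marginal, intermediate and basal values overlapped one another and lay below every value of that cluster and of spindle/root cells. Fos was below the filter on low counts, and without that filter, over 15524 genes, it was higher in spindle/root cells (log2 fold change 2.66, SE 0.60, adjusted p = 0.000296). Without capture 3, where the filter kept Fos, the fold was 1.23 with an adjusted p of 0.567.

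The spindle/root values were set beside markers of the myeloid cells. Of 8 macrophage markers 0 were detected in the spindle/root cells of capture 2 and 1 (C1qb, at 9.96 CPM in all) in capture 3, where the cluster with neutrophil and macrophage markers had 3404 to 8059 CPM. Of 7 neutrophil markers 0 and 2 were detected (29.9 CPM in capture 3, with S100a9 at 0), against 25.5 to 70310 CPM in that cluster. Erythroid markers summed to 253 CPM and 2003 CPM in the spindle/root cells of captures 2 and 3, and their part in the Fos level was not tested.

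Fosb (chr7:19302696-19310051, minus strand), a Fos relative that rises later and lasts longer after a stimulus, gave 8 UMIs in all 3 cell captures. They lay in spindle/root (2), the cluster with neutrophil and macrophage markers (2), basal (1), intermediate (1) and other unnamed cells (2), too few for any order among types.

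Egr1, a zinc-finger factor induced through serum response factor, was the gene with the clearest preference for basal cells. Basal cells had 53.9, 54.4 and 19.2 CPM in the 3 captures (mean 42.5 ± 20.2, SD, n = 3). Marginal cells had 19.8, 1.40 and 0 CPM, intermediate cells 1.85, 6.06 and 0.78, and spindle/root cells 16.8 and 0 in captures 2 and 3. In each capture basal cells were highest, and across captures the marginal value of capture 1 was just above the basal value of capture 3. A few barcodes carried much of the basal level. The top 3 barcodes held 11 of 18 Egr1 UMIs in capture 1 (of 21 cells) and 19 of 36 in capture 2 (of 56 cells). The 6 UMIs of capture 3 came from 3 of 34 cells, with 4 in 1 barcode.

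Egr1 was higher in basal cells than in the mean of the other types (log2 fold change 2.89, SE 0.45, adjusted p = 1.56e-06), and the call held without any single capture and in DESeq2. It was lower in intermediate cells (log2 fold change -1.55, SE 0.62, adjusted p = 0.0439), a call that was lost without capture 1 (fold -0.62, adjusted p = 0.648) or capture 2 (adjusted p = 0.996), and with the intermediate cells of the higher Malat1 cluster alone (fold -0.53, adjusted p = 0.567). Without the block the intermediate value was -1.64 with an adjusted p of 0.176. The Egr1 fold in basal cells ranged from 2.56 to 4.28 over the other settings and stayed called in each, with the filter on low counts or without it. The highest Egr1 levels were in basal sums, so in the report Egr1 may have passed that filter through basal cells. The p-value does not allow for that.

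Nr4a1 (chr15:101254269-101274795, plus strand), the orphan receptor also called Nur77, was low in intermediate cells. It was at 11.9, 14.0 and 18.1 CPM in marginal, at 8.98, 12.1 and 16.0 in basal and at 0.92, 2.50 and 3.51 in intermediate cells. Marginal and basal values overlapped, and each lay above every intermediate value. Spindle/root cells had 11.2 CPM in capture 2, on 2 UMIs, and 0 in capture 3. The cluster with neutrophil and macrophage markers, highest for Fos, Jun and Junb, had 0 Nr4a1 UMIs, which allows up to 11.4 CPM over its 42 cells. Nr4a1 was below the filter, and without the filter its log2 fold change was 1.23 in marginal cells (adjusted p = 0.140) and -1.65 in intermediate cells (adjusted p = 0.0577).

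Ier2 (chr8:84661331-84662852, minus strand) followed Jun in part. It was at 73.0 and 99.6 CPM in the spindle/root cells of captures 2 and 3, at 35.9, 48.4 and 35.2 in basal, at 27.7, 28.0 and 31.8 in marginal and at 24.0, 41.0 and 16.4 in intermediate cells. Spindle/root values lay above those of the other 3 SV types, which overlapped. Ier2 was higher in spindle/root cells (log2 fold change 1.07, SE 0.38, adjusted p = 0.0425), a call lost without capture 1 (adjusted p = 0.0684) or capture 3 (adjusted p = 0.465), in DESeq2 (adjusted p = 0.0547) and without the block (adjusted p = 0.0545). It was lower in marginal cells (log2 fold change -0.73, SE 0.27, adjusted p = 0.0439), and this call was lost when any capture was left out (adjusted p = 0.0508 to 0.344), without the block (adjusted p = 0.0800), in DESeq2 (0.169), without TMM scaling (0.0875), without the filter on low counts (0.0716) and with no doublets removed (0.103).

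Ier3 (chr17:35821684-35822923, plus strand) had levels that overlapped between the 3 main types. Intermediate cells had 42.5, 48.5 and 44.8 CPM, marginal cells 19.8, 39.2 and 61.3, and basal cells 56.9, 24.2 and 32.0. The spindle/root cells of captures 2 and 3 had 28.1 and 29.9 CPM. The marginal and basal ranges enclosed the intermediate values. Ier3 was called higher in intermediate cells (log2 fold change 0.71, SE 0.23, adjusted p = 0.0104), but not in DESeq2 (adjusted p = 0.142), without TMM scaling (adjusted p = 0.201) or without capture 2 (fold 0.52, adjusted p = 0.215). Taken by cluster, the intermediate cells of higher Malat1 had 77.2, 93.2 and 61.3 CPM and those of lower Malat1 30.8, 28.0 and 40.6, with a median mitochondrial share of 13.3% and 41.1%.

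Overlapping genes limit these counts. On mm10 in GENCODE, Jun overlaps the antisense gene Junos, Jund the antisense gene Gm11175 and Atf3 the gene Gm24748 on the other strand, while Junb overlaps Prdx2 on the other strand. Whether counting used the strand was not given in the sources used here, so reads of such pairs cannot be told apart.

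Atf3 (chr1:191170296-191218039, minus strand), a transcriptional repressor and part of the integrated stress response, had 62 of its 70 UMIs from the 3 cell captures in 3 barcodes. Intermediate cells had 0, 23.2 and 0 CPM in captures 1 to 3, and 62 of the 65 UMIs of capture 2 lay in 3 of its 439 barcodes. Elsewhere Atf3 gave 2 UMIs in marginal, 1 in spindle/root and 0 in basal cells. These 3 barcodes, all in the intermediate cluster of higher Malat1, were singled out after their values were seen.

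They had 33, 6 and 23 Atf3 UMIs of 19131, 16877 and 15776 UMIs in all, with mitochondrial shares of 1.81%, 4.18% and 1.81% where the median of that cluster was 13.3%. The same barcodes had 39, 7 and 17 UMIs of Ier2, 20, 6 and 16 of Junb, 29, 70 and 90 of Jund, 1, 4 and 20 of Jun and 10, 0 and 5 of Egr1. Together they held 1.85% of the intermediate UMIs of capture 2, but 95.4% of Atf3, 88.2% of Egr1, 54.8% of Ier2, 43.3% of Junb, 33.3% of Fos, 27.2% of Jun and 23.8% of Jund, and 7.35% of Ier3.

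**Figure D4:**
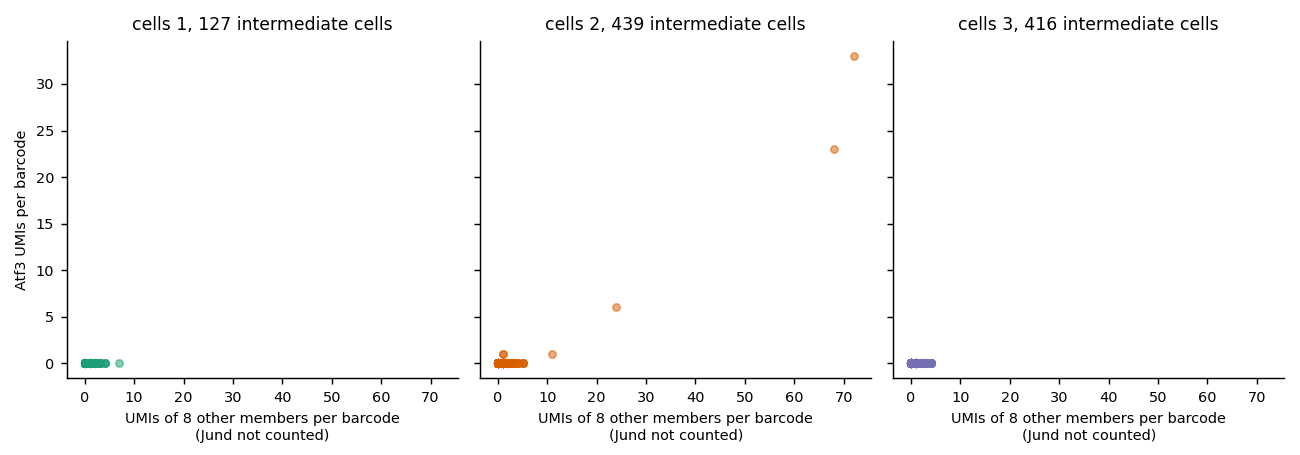
Each point is an intermediate barcode, with its Atf3 UMIs against its summed UMIs of 8 other immediate-early genes without Jund, in a panel for each cell capture. Capture 2 has 3 barcodes with 33, 6 and 23 Atf3 UMIs, and captures 1 and 3 have none.

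The following genes were also chosen after their values were seen, and not each was high in all 3 barcodes. Ddit3, the CHOP factor of the unfolded protein response, had 133, 39 and 87 UMIs, and Klf4, an early factor, 21, 12 and 36. Cdkn1a, the p21 inhibitor of the cell cycle, had 56, 13 and 47 UMIs, and Tnfrsf12a, a TNF receptor family member, 116, 2 and 55. Hmox1, heme oxygenase, had 101, 3 and 4 UMIs, and Chac1 and Trib3, targets of the ATF4 pathway, had 35, 5 and 0 and 16, 7 and 0. The melanocyte-lineage gene Dct, an intermediate cell marker, was at 3711, 13036 and 15213 CPM, against 30784 CPM in the other barcodes of that cluster in capture 2. Mlana, also an intermediate cell marker, was at 52.3, 474 and 1268 CPM, against 855 CPM in those other barcodes. The first barcode held 1 Mlana UMI, so its place among the intermediate cells is uncertain. The barcodes thus differed from one another as well as from the rest.

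Without these 3 barcodes the capture 2 level in intermediate cells went from 23.2 to 1.09 CPM for Atf3, from 6.06 to 0.726 for Egr1, from 41.0 to 18.9 for Ier2, from 34.6 to 20.0 for Junb, from 32.8 to 24.3 for Jun and from 283 to 220 for Jund. The tests then called Ier2 lower in intermediate cells (log2 fold change -0.96, adjusted p = 0.000168) where with them it was -0.35, and gave Egr1 a log2 fold change of -3.18. In basal cells Jun (-0.76, adjusted p = 0.0308) and Junb (-1.23, adjusted p = 0.0235) were then called lower, and in marginal cells Ier2 (-0.56, adjusted p = 0.107) was no longer called.

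Levels in cells were then set beside those in nuclei of the same type, as CPM without mitochondrial UMIs. There was 1 nucleus capture, so no test was possible, and a gene was counted where it was at least 2 times higher in every cell capture. By this count 5 of the 10 genes were higher in spindle/root cells of captures 2 and 3 (Fos, Jun, Junb, Jund and Ier2) against 12.2% of all genes with a UMI. They were 4 in marginal cells (Fos, Jun, Jund and Nr4a1) against 10.7%, 3 in basal cells (Jun, Jund and Egr1) against 10.7%, and 2 in intermediate cells (Fos and Jund) against 12.8%. In each type 0 were at least 2 times lower in every capture. Of all genes with a UMI, 36.5% were lower in spindle/root, 38.1% in marginal, 30.7% in basal and 33.1% in intermediate cells. A gene with 0 UMIs in the nuclei could not be counted as lower. This was so for Fosb in every type, and for Fos and Atf3 in basal and spindle/root nuclei. All 10 genes were counted here, with or without a UMI, so the shares are not over like sets. Whether reads from introns were counted in nuclei was not given in the sources used here.

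On a log2 scale with a pseudocount of 1 CPM, the median of the 10 genes in cells over nuclei was 1.69 in spindle/root, 0.96 in basal, 0.95 in intermediate and 0.71 in marginal cells. The medians of all genes were -0.84, -0.43, -0.32 and -0.32.

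Jund was at least 2 times higher in cells of every type and capture. It was 5.84, 4.72 and 4.66 times its nuclear level in marginal cells, 5.41, 6.76 and 4.42 times in intermediate cells, 10.2, 8.98 and 8.0 times in basal cells, and 6.99 and 7.76 times in the spindle/root cells of captures 2 and 3. The basal ratios were the highest of the 4 types in every capture, and the count for Jund held under each setting tried.

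Jun was 4.14, 2.27 and 3.40 times higher in marginal cells, 2.89, 3.55 and 4.60 times in basal cells and 2.63, 3.37 and 1.37 times in intermediate cells. In spindle/root cells the ratios were 16.3 (95% interval 4.89 to 84.9) and 20.1 (5.75 to 108), against 3 UMIs in the nuclei. The intermediate ratio of capture 3 was the only one below 2.

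Egr1 was at 6 UMIs in basal nuclei, and basal cells were 11.6 (95% interval 4.40 to 35.6), 12.2 (5.08 to 35.4) and 4.60 (1.23 to 17.2) times higher. In marginal cells the ratio was 11.7 in capture 1, 0.861 in capture 2 and 0 in capture 3, on 5, 1 and 0 UMIs. The basal cells were thus the only type with a ratio over 2 in every capture for Egr1.

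Fos had 0 UMIs in basal and spindle/root nuclei. Spindle/root cells were set against the limit that a count of 0 allows, taken as 3 UMIs. With the cell counts taken as exact, Fos was 2.96-fold higher there in capture 2 and 12.6-fold higher in capture 3. In CPM without mitochondrial UMIs, the exact Poisson interval was 7.42 to 69.7 in capture 2, on 4 UMIs. This overlaps the 0 to 11.3 CPM of the nuclei, so 2.96 is not a lower bound. The interval of capture 3, 55.4 to 212 CPM, lay above that of the nuclei. In marginal cells Fos was 3.84, 3.52 and 2.28 times higher, on 2, 5 and 2 UMIs, and each interval includes 1. In intermediate cells it was 3.10, 7.25 and 3.88 times higher against 4 UMIs in the nuclei. In macrophage nuclei Fos was at 25.4 CPM of all UMIs (7 UMIs), and neutrophil nuclei had 0. The 79 macrophage nuclei were of mixed make-up. A cluster of 51 of them had Mpo, Ctsg and Siglech beside C1qb among its top genes. At a resolution of 1.2, clusters of 16 nuclei with Mpo and 10 with Siglech among their top genes stayed unnamed.

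Ier2, Ier3 and Nr4a1 differed less. Ier2 was 1.08, 1.13 and 1.28 times its nuclear level in marginal cells and 2.62 and 3.42 times in spindle/root cells. Ier3 was 1.76, 2.03 and 2.00 times higher in intermediate cells. Nr4a1 was 2.05, 2.50 and 3.23 times higher in marginal cells and 0.282, 0.769 and 1.15 times in intermediate cells. Junb was 2.85 and 7.53 times higher in spindle/root cells. In neutrophil nuclei and in the mixed macrophage nuclei Ier2 was at 163 and 87.2 CPM of all UMIs. The cells of the cluster with both sets of markers, whose make-up differed between captures, had a mean of 128 ± 38.2 CPM (SD, n = 3).

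These counts moved with the scaling in marginal cells. Relative to Lmnb1, Pcna and Tbp, the genes the study used as nuclear references, 1 gene (Jund) was higher in marginal cells, 1 (Jund) in intermediate, 2 (Jund and Egr1) in basal and 5 in spindle/root cells. The median log2 ratio of those references in cells over nuclei was -1.80 in spindle/root cells. It was 0.21 in marginal, 0.34 in intermediate and -0.22 in basal cells. Division by references this low raises ratios, so the count of 5 is no separate check. The study averaged its dissociation genes by dataset and reported no significant difference between cells and nuclei. That measure is unlike these ratios by gene and type. With mitochondrial UMIs kept in the totals, 1 gene (Jund) was higher in marginal cells and the other counts did not move. Shares of all genes are given for the main scaling only. The counts under these other scalings thus have no share beside them and cannot be read against all genes.

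Other genes of the same programs were read from 4 lists. Their counts stand beside the shares of all genes called higher, which were 11.9% in spindle/root, 14.4% in basal, 18.2% in intermediate and 15.2% in marginal cells, and lower, which were 6.4%, 10.6%, 18.5% and 10.9%. Among 22 further early transcription factors 6 were tested, of which 3 were higher and 0 lower in spindle/root, 2 higher and 1 lower in basal, 1 higher and 2 lower in intermediate, and 1 higher and 2 lower in marginal cells. Klf4, a zinc-finger factor of epithelia, was at 471 ± 51.5 CPM in basal cells (SD, n = 3; log2 fold change 5.10, adjusted p = 3.46e-08) and lower in marginal cells (log2 fold change -4.02). Cebpb, a factor of acute responses, was higher in spindle/root (2.65) and basal cells (2.44) and lower in intermediate cells (-4.03). Klf10, a target of TGF-beta, was higher in marginal cells (1.49) and lower in intermediate cells (-2.13).

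Of 24 early feedback regulators, which shorten the response by removing phosphates, transcripts or signals, 14 were tested. In spindle/root cells 4 were higher and 1 lower, in basal cells 4 and 1, in marginal cells 2 and 3, and in intermediate cells 3 and 8. Spindle/root cells were higher in Cyr61 (log2 fold change 4.46), a matrix signal, in Gadd45b (4.17), a stress sensor, and in the growth inhibitor Btg1 (3.10). Intermediate cells were lower in Cyr61 (-5.28) but higher in the phosphatases of MAP kinases Dusp4 (2.41) and Dusp6 (1.97). Of 16 upstream kinases and factors 14 were tested, with 0 higher and 0 lower in spindle/root, 3 and 0 in basal (among them Srf, 1.11), 2 and 0 in intermediate and 1 and 1 in marginal cells.

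Of 12 heat shock genes, chaperones that rise under protein stress, all were tested, with 4 higher and 0 lower in spindle/root, 2 and 0 in basal, 1 and 1 in marginal, and 0 and 7 in intermediate cells. Hspa1a, the inducible Hsp70, was higher in spindle/root cells (log2 fold change 4.26) and lower in intermediate cells (-3.06). Hspb1, a small chaperone, was higher in spindle/root (2.93) and basal cells (2.24) and lower in marginal (-1.05) and intermediate cells (-4.12). Against nuclei, 8 of the 12 were at least 2 times higher in every capture in spindle/root, 9 in marginal, 7 in basal and 7 in intermediate cells, with 0 lower, where the shares of all genes higher were 12.2%, 10.7%, 10.7% and 12.8%, and their median log2 ratio was 1.66, 1.81, 1.65 and 1.46. Of the upstream kinases and factors 4 of 16 were higher in each type, and 4, 3, 3 and 3 were lower against 36.5%, 38.1%, 30.7% and 33.1% of all genes, with medians of -0.28, 0.07, 0.23 and -0.01 in the same order. In that order, 5, 1, 1 and 3 of 21 early transcription factors were higher against 12.2%, 10.7%, 10.7% and 12.8% of all genes. Lower were 1, 4, 4 and 0, and their medians were 1.06, 0.56, 0.72 and 0.57. Of the 24 early feedback regulators, 9, 7, 11 and 10 were higher and 1, 1, 1 and 2 lower. Their medians were 0.79, 0.43, 1.46 and 0.38.

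The genes whose log2 CPM over the 11 sums most resembled the mean of the 6 tested genes were Nupr1 (Pearson r 0.88), a stress-inducible nuclear protein, Rilpl2 (0.88), the ribosomal proteins Rpl10a (0.88) and Rpl15 (0.87), the proteasome subunits Psmb6 (0.87) and Psmb4 (0.86), Skp1a (0.86), Eef1g (0.86), Sugt1 (0.86) and Park7 (0.86). The 11 sums share 3 captures and differ in depth and in mitochondrial share, and these values are a description.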

How the data were processed

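Transcripts of the mouse SV were measured in 3 cell captures and 1 nucleus capture. The authors made 10x Genomics libraries and used Cell Ranger 2.0.0 (version per the submitters' processing notes) with mm10 to count the UMIs of each gene in each barcode. The deposited values are raw counts without normalization.

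Barcodes of under 200 genes were removed, as were Scrublet doublets at 0.8% for every 1000 barcodes (scanpy 1.11.5). Clusters came from Seurat 5.3.0 in R 4.3.3 at a resolution of 0.8 with 2000 variable genes, from which the immediate-early genes and the other response genes were excluded. They were named from 94 markers of 15 classes, where at least 3 markers were raised 2-fold and Malat1 was at least 5000 CPM. The genes, lists and tests were chosen with earlier results of these data known, and the naming rule was set after the clusters and the levels of the genes in them had been seen.

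UMIs were summed per capture and type from at least 5 cells and fitted in edgeR 4.0.16 (TMM, filterByExpr, robust quasi-likelihood fit, Benjamini-Hochberg adjustment), with a replicate block for the capture and an adjusted p under 0.05 as the threshold. The sums of a capture come from the same suspension, which pairs them. Over 6995 genes, 15 pairs of types from the same capture had correlations of -0.0178 to 0.174 after type means were removed, 5 of them over 0.1. Sums hold 100372 to 2805320 UMIs, and 3 UMIs were taken as the limit that a count of 0 allows. The test was checked on simulated sums. Intervals are exact Poisson intervals or, for ratios, exact conditional intervals at 95% (scipy 1.17.1). Of each list, up to 4 genes of the largest log2 fold change among those called in a type could be named. The alternatives were DESeq2 1.42.0, other scalings, filters, resolutions and doublet settings, no block, and each capture left out in turn.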

Additional observations from a re-analysis of the deposited data

How the results depend on the processing

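Over 17 other settings, 408 values of single genes in the type tests gave 349 on the same side of the threshold, 19 newly past it and 38 no longer past it. A further 2 were reversed, which means a change of sign with a call in the report or in the other setting. Changes of sign without any call were counted as the same side. Junb in intermediate cells reversed, from a log2 fold change of 0.05 to -1.06 (adjusted p = 0.0367) without replicate 2 (0.53 without replicate 3) and to -0.99 (adjusted p = 0.0159) with the intermediate cells of the lower Malat1 cluster alone, where the higher Malat1 cluster alone gave 1.06 (adjusted p = 0.0334). The number of the genes called in marginal cells, 2 in the report, was 0 with DESeq2, 0 without TMM scaling, 1 without the filter on low counts, 1 with no doublets removed, 4 at a resolution of 1.2, 5 with response genes among the variable genes, 1 with the lower Malat1 cluster alone and 1 without the 3 barcodes high in Atf3, and 0 to 2 with a capture left out. In basal cells, 2 in the report, it was 1 with DESeq2, 4 without the filter and 4 without those barcodes, and 1 to 3 with a capture left out (1 without capture 1). In spindle/root cells, 4 in the report, it was 2 with the higher Malat1 cluster alone, and 1 to 5 with a capture left out (1, Jun, without capture 3). In intermediate cells, 4 in the report, it was 3 to 5 throughout, but from different genes. The report has 1 higher and 3 lower, the higher Malat1 cluster alone gave 2 higher (Junb and Ier3) and 1 lower (Jund), and the lower Malat1 cluster alone gave 0 higher and 5 lower.

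Without the replicate block the counts were 0 in marginal and 2 in spindle/root cells, and the pairing by capture changed no count by over 1.5 times elsewhere. Where capture 2 or 3 was left out, spindle/root cells had 1 sum, assumed to vary like the other types. At a resolution of 0.4 the tests could not be fitted, since marginal and spindle/root clusters stayed unnamed. No paired analysis was possible because cells and nuclei came from separate suspensions, where their levels were compared.

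The number higher in marginal cells than nuclei, 4 in the report, was 1 with CPM over all UMIs, 1 relative to Lmnb1, Pcna and Tbp, 1 with no Malat1 limit on naming and 2 with Malat1 left out of the totals, and 4 to 5 with a capture left out. In intermediate cells, 2 in the report, it was 1 relative to Lmnb1, Pcna and Tbp, and 2 to 3 with a capture left out. The shares of all genes belong to the setting of the report, so these other counts have none beside them. The cause was not tested in any of these cases. The Malat1 settings, the intermediate clusters and the 3 barcodes were chosen after seeing the data. Fos, Fosb, Atf3 and Nr4a1 had too few counts for the filter used in the report.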
